A study of Mus musculus with 11 samples.

Results

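Macrophages are commonly recognised by a small set of surface receptors, lysosomal proteins and cytoskeletal proteins, and 9 such identity markers were followed here: Emr1, Csf1r, Cd68, Lyz2, Mpeg1, Aif1, Siglec1, Cd163 and Folr2. They were looked up by gene symbol, and all 9 were found among the 22068 symbols measured. The set was chosen with earlier results of these data known. Emr1 is the older symbol of Adgre1 and is the one used in the files.

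Macrophages in tissues and tumours arise from embryonic precursors or from blood monocytes, and most depend on the growth factor receptor CSF1R for survival. F4/80, the product of Emr1, is the classical surface antigen of mouse macrophages. CD68, lysozyme and perforin-2 belong to the machinery that digests and kills what has been engulfed, and CD169 (Siglec1), CD163 and folate receptor beta (Folr2) mark subsets of tissue macrophages. Newly arrived monocytes carry less of several of these proteins than mature macrophages do, and other CD11b-positive cells, such as neutrophils and some dendritic cells, can also express lysozyme or CD68.

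The study isolated CD11b-positive myeloid cells with antibodies and magnetic beads from subcutaneous tumours 4 days after local irradiation at 15 Gy and sequenced their RNA without culture. The mice were STAT3KO (STAT3-/-, MxCre/Stat3flox, 4 libraries), TLR9KO (TLR9-/-, 4 libraries) and WT (wild type, 3 libraries), all on the C57BL/6 background. Stat3 encodes a transcription factor activated by cytokine receptors, and Tlr9 an endosomal receptor for CpG DNA. MxCre places the recombinase under an interferon-inducible promoter that is not limited to myeloid cells, and the labels do not say how deletion was induced or which tumour line was implanted. All libraries came from irradiated tumours, so the values hold no unirradiated baseline. The labels do not say whether replicates are separate animals; p-values therefore measure the variation among these libraries, part of which may be technical. In bulk RNA, fewer cells of a type and less RNA per cell cannot be told apart.

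The targeted transcripts were low in the libraries of their knockouts. Stat3 was 18.2 ± 1.85 RPKM in STAT3KO against 73.1 ± 2.78 RPKM in WT, and Tlr9 was 5.77 ± 1.72 RPKM in TLR9KO against 30.3 ± 10.6 RPKM in WT (SD, n = 4 and 3). RPKM divides a gene's reads by its length in kilobases and by the mapped reads of the library, so levels of different genes can be compared per length. The depth, estimated from the steps of low values, was 30.0 M to 53.45 M reads. Itgam, which encodes the CD11b used for the enrichment, was 191 to 228 RPKM in STAT3KO, 177 to 328 RPKM in TLR9KO and, in WT, 294 to 313 RPKM. It fell in STAT3KO against WT (log2 -0.47 ± 0.17, limma adjusted p = 0.0416), with all STAT3KO libraries below all WT libraries, and did not pass in TLR9KO against WT (-0.35 ± 0.17, limma adjusted p = 0.140). Transcripts of other cells were present too. The summed level of 10 melanocyte genes was 870 to 1350 RPKM in STAT3KO, 508 to 1475 RPKM in TLR9KO and, in WT, 471 to 1533 RPKM, and 17 neutrophil genes summed to 105 to 729 RPKM in STAT3KO, 113 to 306 RPKM in TLR9KO and, in WT, 143 to 276 RPKM. B cell genes stayed at or under 4.79 RPKM summed in each library, with Ms4a1 under 0.1 RPKM in all of them.

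The markers differed widely in level. Averaged over the 11 libraries, Lyz2 was the most abundant at 3982 RPKM and ranked 6 among all symbols, followed by Cd68 at 1107, Mpeg1 at 446, Csf1r at 289, Emr1 at 164, Aif1 at 131, Siglec1 at 116 and Folr2 at 78.7 RPKM. Cd163 stood apart at 4.02 RPKM and ranked 7875. Lyz2 made up 62.1% to 66.9% of the summed RPKM of the markers in STAT3KO, 56.2% to 70.4% in TLR9KO and 45.2% to 58.8% in WT. The sum itself was 6754 to 9612 RPKM in STAT3KO, 4867 to 7467 RPKM in TLR9KO and, in WT, 3865 to 5298 RPKM, so that each STAT3KO library lay above each WT library.

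**Figure D1:**
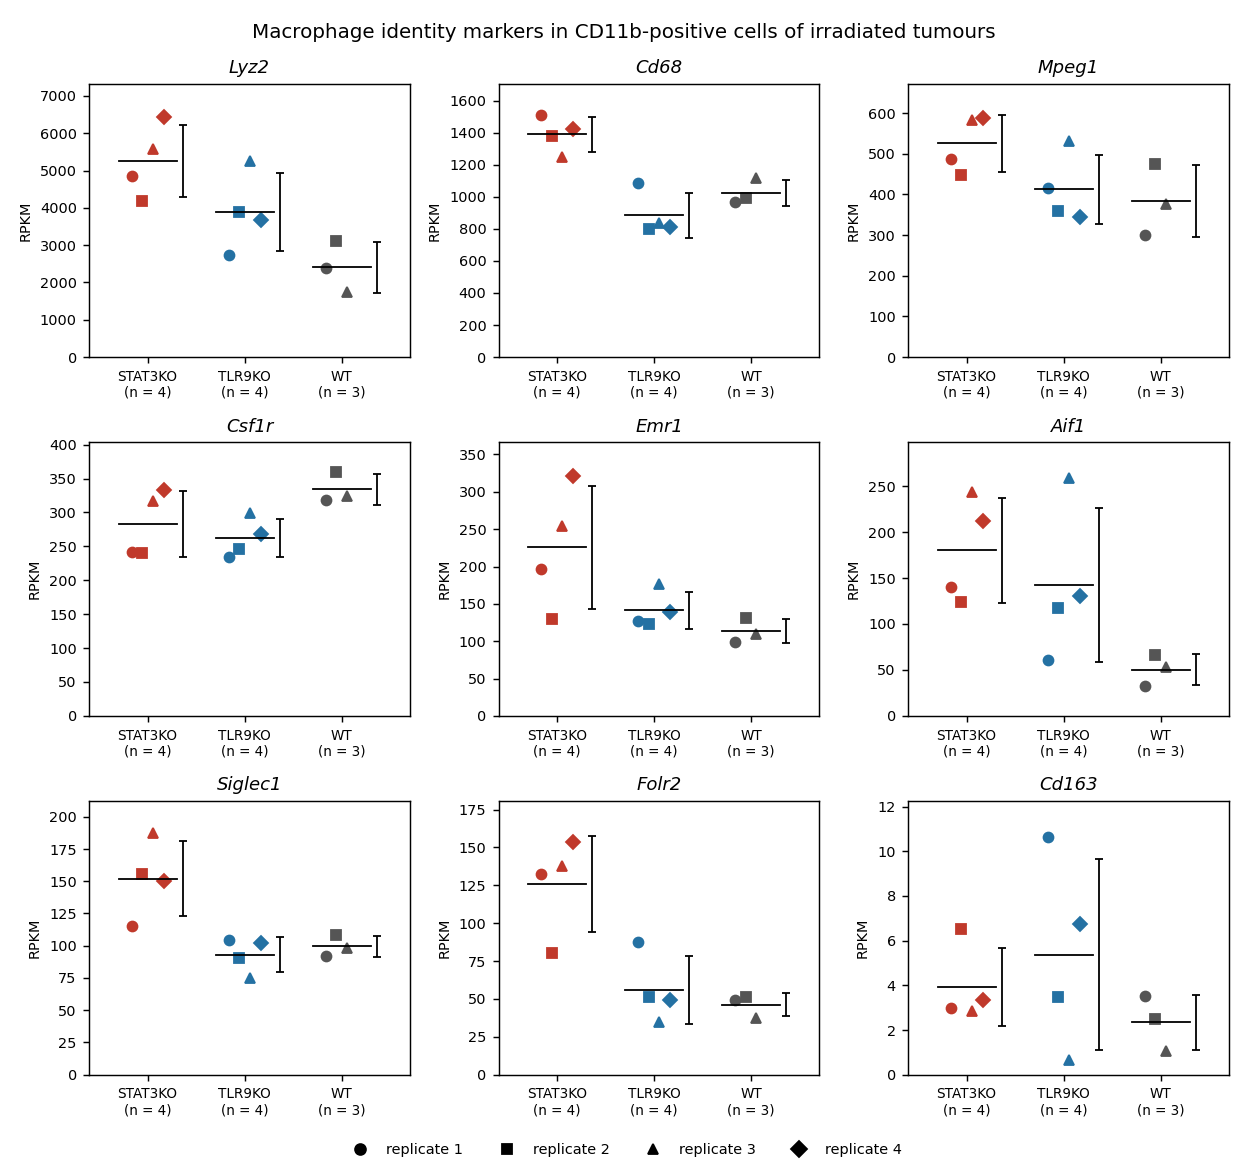
RPKM (vertical axes, linear, starting at 0) of the 9 markers in each library of STAT3KO (n = 4), TLR9KO (n = 4) and WT (n = 3). Symbols mark replicate numbers, horizontal lines the group means and error bars 1 SD; Lyz2, Aif1 and Folr2 were higher in each STAT3KO library than in any WT library, whereas Csf1r was highest on average in WT.

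The first question is how myeloid cells of Stat3-deleted hosts differ from those of WT hosts in these markers. Of the 9 markers, 6 rose in STAT3KO (Aif1, Folr2, Lyz2, Emr1, Siglec1 and Cd68), none fell, and Mpeg1, Cd163 and Csf1r did not pass the test. A marker was called when its limma p-value, with Benjamini-Hochberg adjustment across 10557 tested genes, was under 0.05. Among all genes tested, 29.2% rose, 14.8% fell and 44.0% changed in either direction. The median log2 difference of the markers was 0.59, against 0.09 over all genes. For 5 markers the 2 groups did not overlap, each higher in STAT3KO, as held for 30.8% of all genes. With a correction for GC content and transcript length, 5 markers rose, beside 20.2% of all genes. Over all genes 3083 rose and 1565 fell as deposited, against 2398 and 2152 after median-ratio scaling and 2102 and 1917 after the GC and length correction.

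The same question was put to loss of Tlr9. In TLR9KO against WT, 1 marker, Aif1, rose, none fell and 8 did not pass, while 20.0% of all genes rose, 10.6% fell and 30.6% changed in either direction. The median log2 difference of the markers was 0.21, against 0.04 over all genes. The groups were free of overlap for 1 marker, Csf1r, which was lower in each TLR9KO library, as held for 13.3% of all genes. The count of 1 depends on the fit. It was 0 without TLR9KO replicate 2, TLR9KO replicate 4, WT replicate 1 or WT replicate 3, 2 without WT replicate 2 and 3 without TLR9KO replicate 1. It was also 0 after the GC and length correction, where 8.97% of all genes rose.

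Set against TLR9KO, STAT3KO libraries had 3 markers higher (Folr2, Siglec1 and Cd68), none lower and 6 not past the threshold, while 13.4% of all genes rose, 9.46% fell and 22.8% changed in either direction. The same number, 3, rose after the GC and length correction, where 10.1% of all genes did. The median log2 difference of the markers was 0.47, against 0.06 over all genes. For 2 markers, Cd68 and Siglec1, the groups did not overlap, as held in that direction for 16.4% of all genes. Over all genes 1410 rose and 999 fell as deposited, against 1032 and 1196 after median-ratio scaling. The 3 comparisons share their libraries pairwise and are given side by side for that reason.

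**Figure D2:**
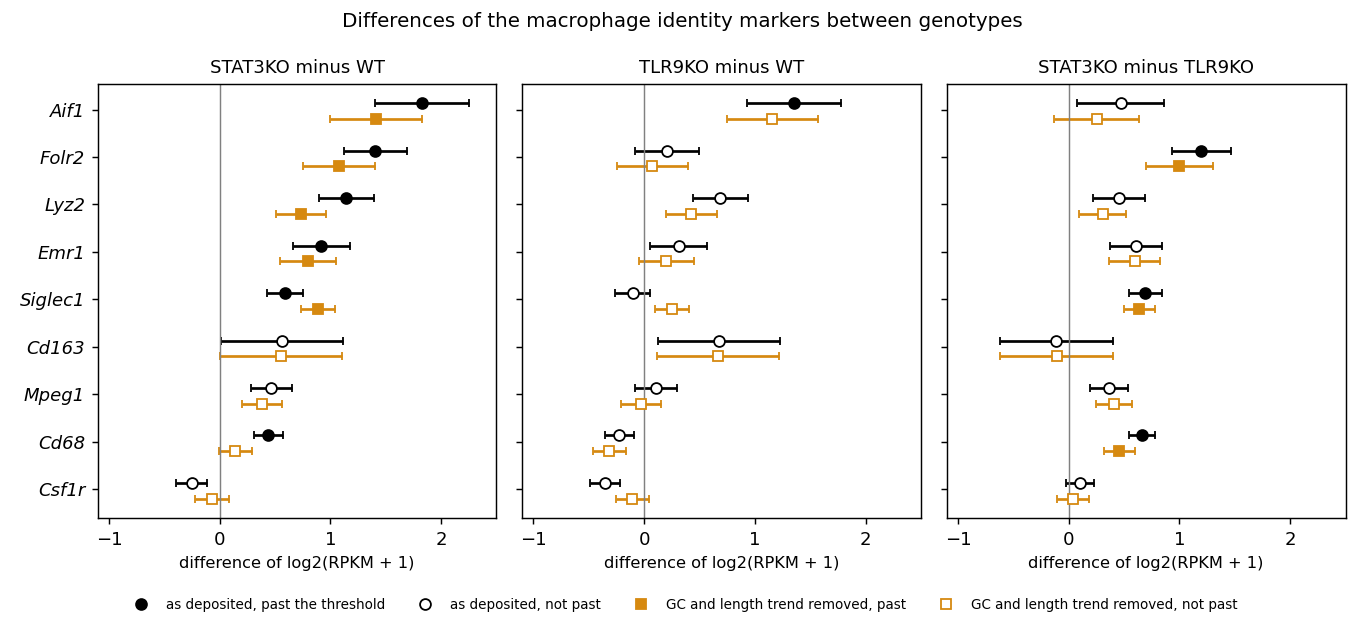
Log2 differences (horizontal axes, log2(RPKM + 1) scale, first-named genotype minus the second) of the 9 markers in the 3 comparisons named above the panels, with bars of 1 moderated standard error. Circles are values as deposited and squares values after the GC and length correction, filled where the limma adjusted p is under 0.05; filled symbols are most frequent in the first panel, and the Cd68 symbol there is open after the correction.

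Csf1r and Emr1 encode the receptors most often used to define the lineage. Csf1r, the receptor for the growth factors CSF1 and IL-34, was 242, 241, 317 and 332 RPKM in the STAT3KO libraries, 235, 246, 300 and 268 RPKM in TLR9KO and 318, 360 and 325 RPKM in WT. The TLR9KO libraries all lay below the WT libraries, and STAT3KO overlapped both. Its means were 283 ± 48.6 RPKM in STAT3KO, 262 ± 28.5 RPKM in TLR9KO and 334 ± 22.7 RPKM in WT (SD, n = 4, 4 and 3). The log2 difference was -0.25 ± 0.14 for STAT3KO minus WT (limma adjusted p = 0.159), -0.35 ± 0.14 for TLR9KO minus WT (0.0729) and 0.10 ± 0.13 for STAT3KO minus TLR9KO (0.599), so Csf1r was called in no comparison. The difference of TLR9KO from WT passed after median-ratio scaling (-0.40, limma adjusted p = 0.0420) and was -0.11 after the GC and length correction (limma adjusted p = 0.677), the lowest and highest adjusted p of the 18 alternatives run. Of the ligands of this receptor, Csf1 did not pass against WT in STAT3KO (-0.80, limma adjusted p = 0.0855) or in TLR9KO (-0.72, limma adjusted p = 0.137), and Il34 was under 0.1 RPKM in each library.

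Emr1, whose product F4/80 is an adhesion-type G protein-coupled receptor, had its highest libraries in STAT3KO. It was 196, 130, 254 and 322 RPKM in STAT3KO, 127, 123, 177 and 139 RPKM in TLR9KO and 99.2, 131 and 110 RPKM in WT. STAT3KO replicate 2, at 129.9 RPKM, lay just below the highest WT library at 130.94 RPKM, and the other 3 STAT3KO libraries were above all WT and TLR9KO libraries. The mean was 226 ± 81.8 RPKM in STAT3KO, 141 ± 24.5 RPKM in TLR9KO and 113 ± 16.2 RPKM in WT. Emr1 rose in STAT3KO against WT (log2 0.92 ± 0.26, limma adjusted p = 0.0139), a call that was lost without WT replicate 1 (0.83, limma adjusted p = 0.0549) and whose adjusted p was 0.00136 or more in the alternatives. It did not pass in TLR9KO against WT (0.31 ± 0.26, limma adjusted p = 0.383) or in STAT3KO against TLR9KO (0.61 ± 0.24, limma adjusted p = 0.0881), though the last passed without STAT3KO replicate 2 (0.85, limma adjusted p = 0.0132), with a limma adjusted p between 0.0102 and 0.215 in the alternatives.

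Siglec1, Folr2 and Cd163 mark subsets of resident and perivascular macrophages. Siglec1, a sialic acid-binding lectin also known as CD169, was 115, 155, 187 and 150 RPKM in STAT3KO, 105, 90.8, 75.0 and 102 RPKM in TLR9KO and 92.1, 108 and 98.0 RPKM in WT. Every STAT3KO library exceeded every library of the other 2 groups, which overlapped each other. Siglec1 rose in STAT3KO to 152 ± 29.4 RPKM, against 99.5 ± 8.19 RPKM in WT (log2 0.59 ± 0.16, limma adjusted p = 0.0118) and against 93.2 ± 13.5 RPKM in TLR9KO (0.69 ± 0.15, limma adjusted p = 0.00861). Both calls held in the 18 alternative analyses run, with 0.89 and 0.64 after the GC and length correction. TLR9KO minus WT was -0.10 ± 0.16 (limma adjusted p = 0.660) and changed sign, to 0.25, with that correction.

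Folr2, folate receptor beta, had the largest relative change after Aif1 among the markers in STAT3KO. It was 133, 80.5, 138 and 154 RPKM in STAT3KO, 87.9, 51.1, 35.0 and 49.5 RPKM in TLR9KO and 49.6, 51.2 and 37.4 RPKM in WT. All STAT3KO libraries were above all WT libraries, whereas STAT3KO replicate 2 lay below TLR9KO replicate 1. The means were 126 ± 31.7 RPKM in STAT3KO, 55.9 ± 22.6 RPKM in TLR9KO and 46.1 ± 7.55 RPKM in WT, a ratio of 2.74 for STAT3KO over WT and 2.26 for STAT3KO over TLR9KO. Folr2 rose in STAT3KO against WT (log2 1.41 ± 0.29, limma adjusted p = 0.0026) and against TLR9KO (1.20 ± 0.27, limma adjusted p = 0.00991), and both calls held in the 18 alternatives. The difference of TLR9KO from WT was 0.21 ± 0.29 (limma adjusted p = 0.615) and turned to -0.03 without TLR9KO replicate 1.

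Cd163, the scavenger receptor for haemoglobin bound to haptoglobin, was low throughout. It was 2.97, 6.51, 2.84 and 3.33 RPKM in STAT3KO, 10.6, 3.47, 0.67 and 6.74 RPKM in TLR9KO and 3.52, 2.48 and 1.06 RPKM in WT. The TLR9KO group alone spanned both the highest and the lowest library of the series. The lowest value still stood for about 124 reads at the estimated depth, so counting error was small beside the spread. No comparison passed, with log2 differences of 0.57 ± 0.55 for STAT3KO minus WT, 0.68 ± 0.55 for TLR9KO minus WT and -0.11 ± 0.51 for STAT3KO minus TLR9KO (limma adjusted p = 0.435, 0.378 and 0.895). The second passed without TLR9KO replicate 3 (1.21, limma adjusted p = 0.0448) and had an adjusted p of up to 0.717 in the alternatives.

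Cd68, Lyz2 and Mpeg1 encode products of the digestive and killing compartments. Cd68, a heavily glycosylated lysosomal membrane protein, was 1513, 1378, 1252 and 1422 RPKM in STAT3KO, 1090, 799.8, 836 and 809 RPKM in TLR9KO and 969.8, 989.8 and 1119 RPKM in WT. STAT3KO lay above both other groups in each library, and TLR9KO replicate 1 stood above the other TLR9KO libraries. Cd68 rose in STAT3KO to 1391 ± 109 RPKM, against 884 ± 138 RPKM in TLR9KO (log2 0.66 ± 0.12, limma adjusted p = 0.00394), a call that held in the 18 alternatives. It also rose against the WT mean of 1026 ± 80.9 RPKM (0.44 ± 0.13, limma adjusted p = 0.0187). That second call was lost after the GC and length correction (0.14, limma adjusted p = 0.472), after median-ratio scaling (0.33, 0.0659), with no filter (0.44, 0.0687), and without STAT3KO replicate 1 (0.40, 0.0517), WT replicate 1 (0.40, 0.0707) or WT replicate 2 (0.41, 0.0538), with an adjusted p as low as 0.00345 in the other alternatives. TLR9KO minus WT was -0.22 ± 0.13 (limma adjusted p = 0.213) and passed as a fall only without TLR9KO replicate 1 (-0.33, limma adjusted p = 0.0365), with an adjusted p of up to 0.480 otherwise.

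Lyz2, lysozyme M, an enzyme that cleaves bacterial cell walls, was 4844, 4192, 5566 and 6427 RPKM in STAT3KO, 2736, 3892, 5254 and 3662 RPKM in TLR9KO and 2376, 3113 and 1746 RPKM in WT. STAT3KO was above WT in all libraries, and TLR9KO ranged across both groups. The means were 5257 ± 961 RPKM in STAT3KO, 3886 ± 1040 RPKM in TLR9KO and 2411 ± 684 RPKM in WT. Lyz2 rose in STAT3KO against WT (log2 1.15 ± 0.25, limma adjusted p = 0.00385; 0.73 after the GC and length correction), which held in the 18 alternatives. TLR9KO minus WT was 0.69 ± 0.25 (limma adjusted p = 0.0578) and passed without TLR9KO replicate 1 (0.85, limma adjusted p = 0.0216) or WT replicate 2 (0.89, limma adjusted p = 0.0268), and its adjusted p lay between 0.00964 and 0.257 in the alternatives. STAT3KO minus TLR9KO was 0.46 ± 0.23 (limma adjusted p = 0.176) and passed with array weights (0.51, limma adjusted p = 0.0387), with an adjusted p of up to 0.443 in the alternatives. Lyz1, a near-identical lysozyme gene, averaged 268 RPKM in STAT3KO, 252 RPKM in TLR9KO and 128 RPKM in WT; reads of the 2 genes can be assigned to either, so their separate values are uncertain.

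Mpeg1, perforin-2, a pore-forming protein of phagosomes, was 488, 447, 583 and 588 RPKM in STAT3KO, 415, 358, 531 and 346 RPKM in TLR9KO and 301, 476 and 376 RPKM in WT. All 3 groups overlapped. STAT3KO averaged 527 ± 70.0 RPKM, TLR9KO 413 ± 84.5 RPKM and WT 384 ± 87.7 RPKM. STAT3KO minus WT was 0.47 ± 0.19 (limma adjusted p = 0.0621) and passed without STAT3KO replicate 2 (0.54, 0.0495), TLR9KO replicate 3 (0.47, 0.0370) or WT replicate 2 (0.63, 0.0239), and its limma adjusted p lay between 0.00457 and 0.250 in the alternatives. TLR9KO minus WT was 0.11 ± 0.19 (limma adjusted p = 0.700) and STAT3KO minus TLR9KO 0.36 ± 0.17 (limma adjusted p = 0.151). The last passed with array weights (0.51, limma adjusted p = 0.0146), with an adjusted p of up to 0.318 in the alternatives.

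Aif1 encodes IBA1, a calcium-binding protein that bundles actin in macrophages and microglia, and had the largest log2 difference of the markers in both comparisons with WT. It was 141, 124, 243 and 212 RPKM in STAT3KO, 61.1, 118, 259 and 130 RPKM in TLR9KO and 32.1, 66.0 and 52.7 RPKM in WT. All STAT3KO libraries were above all WT libraries, while TLR9KO replicate 1 fell within the WT range and TLR9KO replicate 3 was the highest of the series. The means were 180 ± 57.0 RPKM in STAT3KO, 142 ± 83.7 RPKM in TLR9KO and 50.3 ± 17.0 RPKM in WT. Aif1 rose in STAT3KO against WT (log2 1.83 ± 0.42, limma adjusted p = 0.00529), which held in the 18 alternatives. It rose in TLR9KO against WT as well (1.36 ± 0.42, limma adjusted p = 0.0319), but this call was lost in 8 of the 18. Among those were the GC and length correction (1.16, limma adjusted p = 0.0824), no filter (1.36, 0.0657) and the fit of only the 2 groups compared (1.36, 0.0601). The others left out WT replicate 1 (1.07, 0.135), WT replicate 3 (1.42, 0.0694), TLR9KO replicate 2 (1.38, 0.0580), TLR9KO replicate 3 (1.01, 0.0630) or TLR9KO replicate 4 (1.34, 0.0639), and over the 18 the limma adjusted p lay between 0.00335 and 0.135. STAT3KO minus TLR9KO was 0.47 ± 0.39 (limma adjusted p = 0.409).

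Promoter sequence was examined for the markers with an entry in a RefSeq table of the GRCm38.p6 build, which held Cd68, Lyz2, Mpeg1, Aif1, Cd163 and Folr2. The 250 bases before the annotated start are shown for 3 markers that rose in STAT3KO, Aif1, Lyz2 and Cd68, so that the letters can be read beside the values, 5′ to 3′ on the gene's strand. Capitals mark matches to the searched motifs. The Aif1 stretch is chr17:35176053-35176302, the Lyz2 stretch chr10:117282273-117282522 and the Cd68 stretch chr11:69666171-69666420, each on the minus strand.
Aif1: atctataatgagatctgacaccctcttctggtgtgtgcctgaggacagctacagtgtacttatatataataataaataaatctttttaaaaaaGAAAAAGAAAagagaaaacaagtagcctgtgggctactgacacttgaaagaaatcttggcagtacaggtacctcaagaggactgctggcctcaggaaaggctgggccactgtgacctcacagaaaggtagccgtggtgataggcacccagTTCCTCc
Lyz2: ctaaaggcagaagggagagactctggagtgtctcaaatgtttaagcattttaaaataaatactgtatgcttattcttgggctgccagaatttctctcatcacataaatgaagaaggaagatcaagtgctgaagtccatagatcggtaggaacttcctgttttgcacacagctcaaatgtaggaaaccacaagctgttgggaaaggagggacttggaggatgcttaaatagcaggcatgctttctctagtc
Cd68: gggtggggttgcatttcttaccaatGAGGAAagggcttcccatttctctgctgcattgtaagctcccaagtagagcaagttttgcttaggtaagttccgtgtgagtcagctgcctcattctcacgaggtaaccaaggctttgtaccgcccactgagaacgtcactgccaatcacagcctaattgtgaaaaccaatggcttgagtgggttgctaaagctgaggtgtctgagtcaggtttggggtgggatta
The motifs were GAGGAA, the core and flank bound by ETS factors such as PU.1; the longer GAGGAAGT, which contains it; TTCNNNGAA, a STAT motif; and 2 GAAA half-sites 2 bases apart, an interferon response motif. Both strands were searched in windows reaching 50 bases past the start. Over 32851 promoters, 28.3% held GAGGAA, 3.20% GAGGAAGT, 8.30% TTCNNNGAA and 3.44% the paired GAAA half-sites. With the start as position 0, Aif1 held TTCCTC, the reverse complement of GAGGAA, at position -7 and the paired half-sites at position -157. Cd68 held GAGGAA at position -225 and TTCCTC at position 29. None of the 4 motifs was found in the windows of Lyz2, Mpeg1, Cd163 or Folr2, which says only that these letters are not in those windows.

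Other macrophage genes were counted in the same way, beside the shares of all genes tested: 29.2% rose and 14.8% fell in STAT3KO against WT, 20.0% and 10.6% in TLR9KO against WT, and 13.4% and 9.46% in STAT3KO against TLR9KO. Of 30 core tissue macrophage genes tested, 8 rose and 4 fell in STAT3KO against WT, 5 rose and 3 fell in TLR9KO against WT, and 7 rose and 5 fell in STAT3KO against TLR9KO. In both comparisons with WT these counts were near the shares of all genes. After the GC and length correction 6 rose and 6 fell in STAT3KO against WT, none rose and 2 fell in TLR9KO against WT, and 6 rose and 6 fell in STAT3KO against TLR9KO. Under that correction 20.2% of all genes rose and 18.4% fell in STAT3KO against WT. The corrected shares were 8.97% and 6.88% in TLR9KO against WT, and 10.1% and 10.1% in STAT3KO against TLR9KO. Tlr4, the receptor for lipopolysaccharide, fell to 16.5 ± 1.17 RPKM in STAT3KO, against 26.4 ± 4.30 RPKM in WT (log2 -0.64, limma adjusted p = 0.00196), whereas Dok3, an adaptor of immune receptors, rose to 40.5 ± 7.55 RPKM, against 19.3 ± 2.25 RPKM in WT (1.02, limma adjusted p = 0.000862). The median log2 difference of this list was 0.14 for STAT3KO minus WT, close to the 0.09 of all genes.

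Of 15 resident and perivascular macrophage genes tested, 6 rose and 3 fell in STAT3KO against WT. The iron exporter gene Slc40a1 rose to 46.8 ± 18.8 RPKM, against 5.97 ± 3.55 RPKM in WT (log2 2.85, limma adjusted p = 0.000803), and the growth factor gene Igf1 rose to 44.1 ± 17.0 RPKM, against 10.1 ± 3.55 RPKM in WT (2.01, limma adjusted p = 0.000775). In contrast Mrc1, the mannose receptor CD206, fell to 108 ± 12.9 RPKM, against 199.9 ± 54.6 RPKM in WT (-0.85, limma adjusted p = 0.00676). The chemokine gene Ccl8 rose in TLR9KO to 794 ± 209.5 RPKM, against 184 ± 57.3 RPKM in WT (2.11, limma adjusted p = 0.00026). Against TLR9KO, STAT3KO again had 6 genes of the list higher and 3 lower, whereas TLR9KO against WT had 2 higher and none lower. After the GC and length correction these counts were 6 and 3, and 1 and none, and in STAT3KO against WT 4 rose and 3 fell. For STAT3KO against WT, 29.2% of all genes rose and 14.8% fell as deposited, and 20.2% and 18.4% after the correction. For STAT3KO against TLR9KO the shares were 13.4% and 9.46%, and 10.1% and 10.1% after it. For TLR9KO against WT they were 20.0% and 10.6%, and 8.97% and 6.88% after it.

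Genes that act downstream of or beside CSF1R were counted next. Of 18 tested, 4 rose and 5 fell in STAT3KO against WT. Tyrobp, the adaptor DAP12, rose to 969.7 ± 109 RPKM in STAT3KO, against 440 ± 28.3 RPKM in WT (log2 1.13, limma adjusted p = 0.000852). Pik3cd, a catalytic subunit of phosphoinositide 3-kinase, fell to 38.0 ± 7.40 RPKM, against 77.0 ± 8.96 RPKM in WT (-1.01, limma adjusted p = 0.0013). None rose and 2 fell in TLR9KO against WT, near the 10.6% of all genes that fell, namely Cbl (-1.14) and Plcg2 (-0.64). The Plcg2 call was lost after the GC and length correction (-0.40, limma adjusted p = 0.165). In STAT3KO against TLR9KO 2 rose and 2 fell, and after the correction 2 and 3. The shares of all genes there were 13.4% and 9.46% as deposited, and 10.1% and 10.1% after the correction. For STAT3KO against WT, 29.2% of all genes rose and 14.8% fell as deposited.

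Among 19 macrophage transcription factor genes tested, Spic and Pparg rose and 4 fell in STAT3KO against WT. Spic, required for splenic red pulp macrophages, rose to 4.76 ± 1.81 RPKM in STAT3KO, against 0.51 ± 0.18 RPKM in WT (log2 1.89, limma adjusted p = 9.96e-05), and Egr2 fell to 14.3 ± 4.98 RPKM, against 87.6 ± 10.9 RPKM in WT (-2.59, limma adjusted p = 2.18e-05). Sfpi1, which encodes PU.1, an ETS factor that binds many macrophage promoters, differed from WT by 0.04 in STAT3KO (limma adjusted p = 0.846). In TLR9KO against WT 3 rose (Tcfec, Maf and Klf4) and none fell, while 20.0% of all genes rose and 10.6% fell. After the GC and length correction only Maf of these passed: Tcfec was 0.07 (limma adjusted p = 0.778), against 0.54 as deposited, and Klf4 was 1.02 (limma adjusted p = 0.0524). As deposited, in STAT3KO against TLR9KO 3 rose and 5 fell, and after the correction 2 rose and 5 fell. The shares of all genes there were 13.4% and 9.46% as deposited, and 10.1% and 10.1% after the correction. For STAT3KO against WT, 29.2% of all genes rose and 14.8% fell as deposited.

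Relatives of the markers by gene family were higher in STAT3KO where they passed. Of 12 tested, 7 rose and none fell in STAT3KO against WT, 2 rose and 1 fell in TLR9KO against WT, and 4 rose and none fell in STAT3KO against TLR9KO. After the GC and length correction 6, 2 and 6 rose and none, 1 and none fell in the same comparisons. In that order 29.2%, 20.0% and 13.4% of all genes rose as deposited, and 20.2%, 8.97% and 10.1% after the correction. Falls made up 14.8%, 10.6% and 9.46% as deposited, and 18.4%, 6.88% and 10.1% after it. The scavenger receptor gene Msr1 rose to 156 ± 9.44 RPKM in STAT3KO, against 59.4 ± 5.07 RPKM in WT (log2 1.38, limma adjusted p = 2.18e-05). Msr1 also rose in TLR9KO against WT, to 128 ± 20.2 RPKM (1.08, limma adjusted p = 0.000248), and passed after the correction (0.52, limma adjusted p = 0.0123). Emr4, a relative of Emr1, rose to 1.83 ± 0.48 RPKM in STAT3KO, against 0.59 ± 0.24 RPKM in WT (0.83, limma adjusted p = 0.00234). Cd97, another adhesion receptor gene, fell to 23.4 ± 3.11 RPKM in TLR9KO, against 46.6 ± 10.9 RPKM in WT (-0.95, limma adjusted p = 0.00519). In STAT3KO Cd97 rose against WT (0.84, limma adjusted p = 0.00609). Lyz1, whose reads can be shared with the marker Lyz2, was counted among the rises in both comparisons with WT.

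Siglec1 is an interferon-induced gene, and Cd163 responds to glucocorticoids and IL-10 in macrophages, so lists of such genes were set beside them. Of 24 interferon-stimulated genes, 12 rose and none fell in STAT3KO against WT, 12 rose and none fell in TLR9KO against WT, and 1, Bst2, rose in STAT3KO against TLR9KO, beside 29.2%, 20.0% and 13.4% of all genes that rose. After the GC and length correction 10 rose in STAT3KO against WT, 5 in TLR9KO against WT and none in STAT3KO against TLR9KO, where Bst2 was 0.39 (limma adjusted p = 0.151). The shares of all genes that rose under the correction were 20.2%, 8.97% and 10.1%. Siglec1 itself rose in STAT3KO and was -0.10 in TLR9KO against WT. Of 17 genes responsive to glucocorticoids or IL-10, 2 rose and 5 fell in STAT3KO against WT, among them Socs3 (log2 -2.21), a feedback inhibitor of cytokine signalling. In TLR9KO against WT 1 rose and 1 fell, and none did either after the GC and length correction, under which 2 rose and 6 fell in STAT3KO against WT. For STAT3KO against WT, 14.8% of all genes fell as deposited and 18.4% after the correction. For TLR9KO against WT those shares were 10.6% and 6.88%.

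Markers of other cell types were counted beside the same shares of all genes. In STAT3KO against WT 29.2% of all genes rose and 14.8% fell. The shares were 20.0% and 10.6% in TLR9KO against WT, and 13.4% and 9.46% in STAT3KO against TLR9KO. Of 15 monocyte genes, 5 rose and 3 fell in STAT3KO against WT, and the rises were near the share of all genes. Cx3cr1 rose to 21.9 ± 12.2 RPKM in STAT3KO, against 1.18 ± 0.56 RPKM in WT. In contrast Fn1 fell to 74.6 ± 15.9 RPKM, against 478 ± 143 RPKM in WT (log2 -2.64, limma adjusted p = 0.000434). Nr4a1 also fell, to 60.1 ± 20.2 RPKM, against 176 ± 31.2 RPKM in WT (-1.57, limma adjusted p = 0.000337). The list summed to 1080 to 3157 RPKM in STAT3KO, 1113 to 1618 RPKM in TLR9KO and, in WT, 1160 to 1420 RPKM. Of 10 dendritic cell genes, none rose and 4 fell in STAT3KO against WT, with sums of 82.8 to 191 RPKM in STAT3KO, 166 to 366 RPKM in TLR9KO and, in WT, 270 to 478 RPKM. Of 13 neutrophil genes, none rose and 2 fell in both comparisons with WT, in STAT3KO near the 14.8% of all genes that fell. The median log2 difference of this list was 0.55 for STAT3KO minus WT, opposite in sign to the 2 calls, and STAT3KO replicate 2 stood apart with a neutrophil sum of 729 RPKM, against 105 to 133 RPKM in the other STAT3KO libraries. STAT3KO replicate 2 was also the lowest STAT3KO library for Emr1, Folr2, Lyz2, Mpeg1, Aif1 and Csf1r. It was the highest for Cd163 (6.51 RPKM), and its Siglec1 (155 RPKM) and Cd68 (1378 RPKM) lay within the range of the other STAT3KO libraries. In both comparisons with WT 4 of 6 fibroblast genes rose, with sums of 96.9 to 116 RPKM in STAT3KO, 32.9 to 115 RPKM in TLR9KO and, in WT, 28.3 to 77.2 RPKM. In both, 5 of 6 erythroid and platelet genes fell, with sums of 11.3 to 79.1 RPKM in STAT3KO, 5.53 to 56.6 RPKM in TLR9KO and, in WT, 63.2 to 326 RPKM. None of 10 melanocyte genes passed in any of the 3 comparisons. After the GC and length correction 3 monocyte genes rose and 3 fell, 3 dendritic cell genes fell and 3 erythroid and platelet genes fell in STAT3KO against WT, and 1 melanocyte gene fell in STAT3KO against TLR9KO. Hbb-b2, an erythroid gene that fell as deposited in STAT3KO (-2.62) and TLR9KO (-2.70) against WT, had no corrected value. Under the correction 20.2% of all genes rose and 18.4% fell in STAT3KO against WT, and 10.1% fell in STAT3KO against TLR9KO. Of 8 T and NK cell genes 2 fell in STAT3KO and 1 in TLR9KO against WT, the second count near the share of all genes. The only B cell gene tested rose in STAT3KO and the only gene of mast cells, basophils or eosinophils tested did not pass, and of 3 endothelial genes 1 fell in STAT3KO. The part of these cells in the marker differences was not tested.

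Csf1r alone had a negative difference in STAT3KO minus WT, and the other markers were therefore also expressed as a ratio to Csf1r in the same library, a choice made after the values were seen. The ratio of Lyz2 to Csf1r was 17.4 to 20.0 in STAT3KO, 11.6 to 17.5 in TLR9KO and 5.37 to 8.64 in WT. That of Aif1 was 0.516 to 0.768 in STAT3KO, 0.260 to 0.865 in TLR9KO and 0.101 to 0.183 in WT, and that of Emr1 was 0.540 to 0.968 in STAT3KO, 0.498 to 0.589 in TLR9KO and 0.312 to 0.364 in WT. For these 3 ratios each library of either knockout exceeded each WT library. The ratios of Folr2, Siglec1, Mpeg1 and Cd68 also separated STAT3KO from WT without overlap, and overlapped between TLR9KO and WT. The Folr2 ratio, for example, was 0.335 to 0.548 in STAT3KO, 0.117 to 0.374 in TLR9KO and 0.115 to 0.156 in WT. Over 24 two-sided exact permutation tests no adjusted p was under 0.098. With 4 against 3 libraries the smallest p that such a test can give is 0.0571, and with 4 against 4 it is 0.0286. A ratio shows unequal change of 2 genes and not which of them changed. Csf1r averaged less in both knockouts than in WT, so division by it raises the knockout ratios of any gene relative to WT. As levels, Emr1 and Mpeg1 overlapped between STAT3KO and WT. How often ratios of other genes to Csf1r separate the groups was not computed. The separation is therefore not shown to be particular to these markers.

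**Figure D3:**
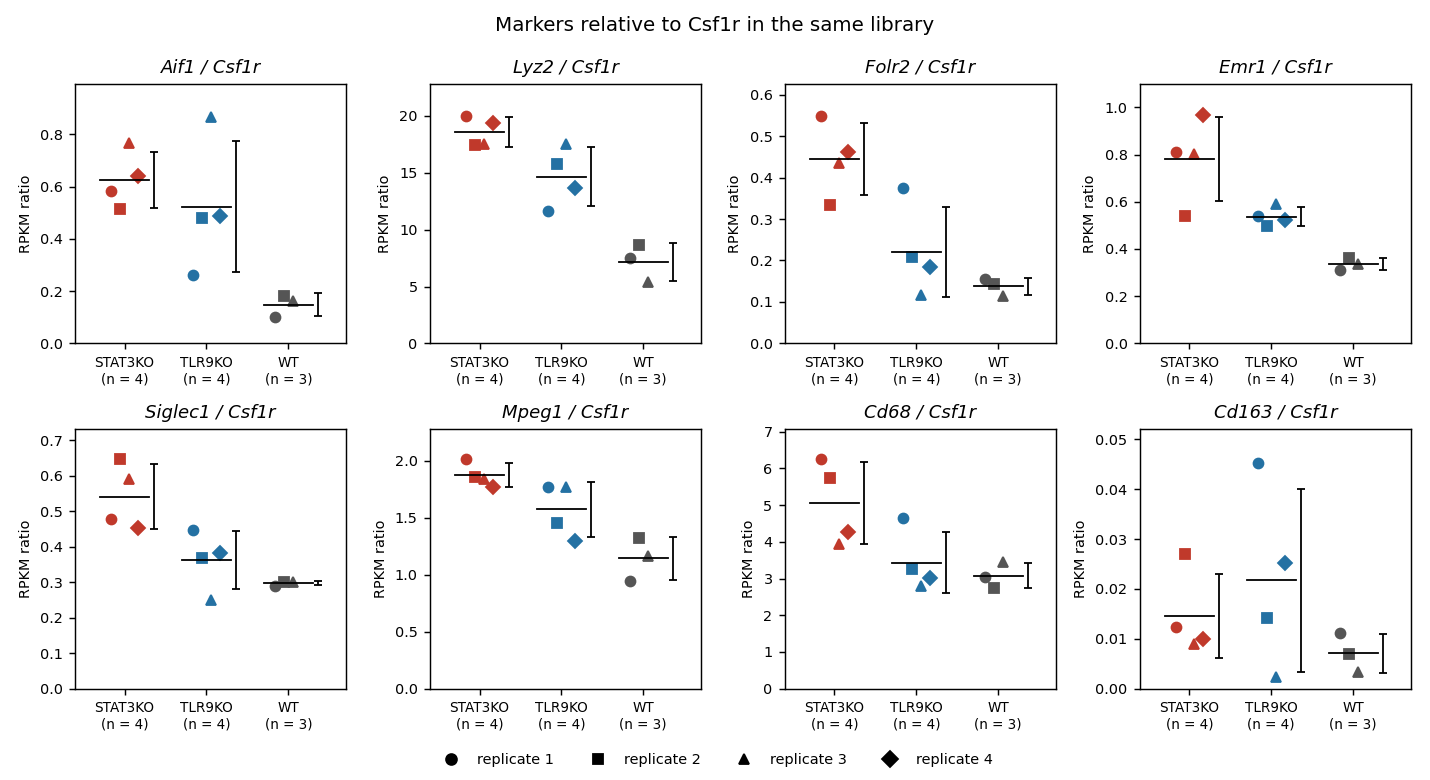
Ratio of each marker to Csf1r in the same library (vertical axes, RPKM ratio, linear, starting at 0) in STAT3KO (n = 4), TLR9KO (n = 4) and WT (n = 3). Symbols mark replicate numbers, lines the means and error bars 1 SD; the WT libraries lie below all libraries of both knockouts for Aif1, Lyz2 and Emr1.

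Within genotypes the markers did not vary as a single block. Aif1 spanned a factor of 4.24 and Cd163 of 15.9 between the highest and lowest TLR9KO library, against 1.28 for Csf1r and 1.36 for Cd68 in the same libraries. After subtraction of the group means, Csf1r and Emr1 correlated at Pearson r = 0.90 and Spearman rho = 0.92 over 11 libraries (exact permutation within groups, adjusted p = 0.0208 and 0.0729). Without the 2 libraries whose Emr1 deviation lay farthest from the median, r was 0.92. Over the 36 pairs, 5 passed at an adjusted p under 0.05 by Pearson correlation and none by Spearman correlation, whose smallest adjusted value was 0.0729.

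The other pairs that passed were Emr1 with Mpeg1 (r = 0.74, rho = 0.75, exact permutation adjusted p = 0.0365 and 0.108), Csf1r with Aif1 (0.82, 0.84, 0.0451 and 0.0781), Csf1r with Lyz2 (0.77, 0.76, 0.0479 and 0.108) and Emr1 with Aif1 (0.69, 0.83, 0.0479 and 0.104). Without the 2 libraries farthest from the median these were 0.86, 0.80, 0.63 and 0.87. The distance was taken on Emr1 in the Emr1 pairs and on Csf1r in the Csf1r pairs, so extremes of the other marker could remain. The pairs thus joined Csf1r, Emr1, Mpeg1, Lyz2 and Aif1. Cd163 ran opposite to Aif1 at r = -0.82 (rho = -0.71), which did not pass (exact permutation adjusted p = 0.103 and 0.163). Without the 2 libraries farthest from the median of Aif1, r was -0.49.

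The libraries at the extremes illustrate this. TLR9KO replicate 3 was the highest TLR9KO library for Csf1r, Emr1, Mpeg1, Lyz2 and Aif1 and the lowest for Siglec1, Folr2 and Cd163, and its melanocyte sum of 508 RPKM was the lowest of its group. TLR9KO replicate 1 was the highest of its group for Siglec1, Cd68, Folr2 and Cd163 and the lowest for Lyz2, Aif1 and Csf1r. In WT, replicate 2 was highest for Csf1r, Emr1, Mpeg1, Lyz2, Aif1, Siglec1 and Folr2, and its melanocyte sum was 471 RPKM against 1365 to 1533 RPKM in the other WT libraries. By contrast STAT3KO replicate 4 was highest of its group for Csf1r, Emr1, Mpeg1, Lyz2 and Folr2. Its melanocyte sum was 1267 RPKM, in a group range of 870 to 1350 RPKM. Across libraries, deviations of the 9 markers from their group means were correlated with those of the melanocyte, neutrophil and monocyte sums, which gave 27 relations and none that passed (exact permutation within groups, smallest adjusted p = 0.203). The smallest p was that of Lyz2 with the neutrophil sum, at r = -0.70 and rho = -0.65 (exact permutation adjusted p = 0.203 and 0.326). Without the 2 libraries farthest from the median of the neutrophil sum, r was -0.62. Emr1 with the neutrophil sum (r = -0.75) and Mpeg1 with the melanocyte sum (-0.72) were larger in r, each with an exact permutation adjusted p of 0.303. Without the 2 libraries farthest from the median of the sum, these were -0.38 and -0.28.

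**Figure D4:**
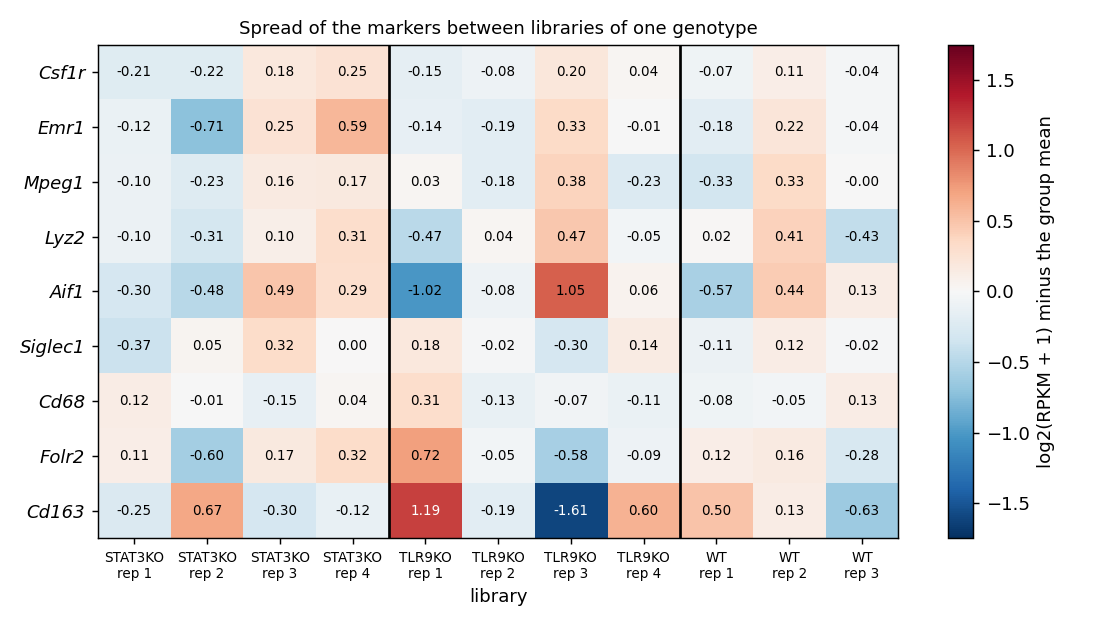
Deviation of each marker from its group mean on the log2(RPKM + 1) scale (colour, red above and blue below the mean) in each of the 11 libraries, grouped as STAT3KO, TLR9KO and WT. TLR9KO replicate 3 is red for Aif1 (1.05) and blue for Cd163 (-1.61), and TLR9KO replicate 1 has the opposite signs (-1.02 and 1.19).

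For each marker the 3 tested genes with the most similar pattern were found by Pearson correlation of log2(RPKM + 1) over the 11 libraries, which combines differences between and within genotypes and is given as a description. Lyz2 was closest to Rgs10 (r = 0.99), Aif1 to Trim12a, Gmfg and Med11 (each 0.97), and Emr1 to Nlrc4, D6Mm5e and Olfml3 (each 0.97). Folr2 was closest to Mdm1 (0.97) and then to Serpinb8 and AI427809 (each 0.96), and Cd68 to Ptgr1, Cd36 and Snx29 (each 0.96), of which Cd36 encodes a scavenger receptor. Arhgef2 (0.95) and Inpp5d (0.93), the second encoding the phosphatase SHIP, were among the 3 genes closest to Csf1r. The closest genes were Padi4 (0.95), Safb2 (0.94) and Ltc4s (0.93) for Siglec1, Gpr65 (0.94), Ly9 (0.93) and Iqgap2 (0.92) for Mpeg1, and Etv1 (0.92), Nid2 (0.81) and Wipi1 (0.81) for Cd163. The remaining 2 genes closest to Lyz2 were 0610037L13Rik and Utp14a (each 0.98).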

How the data were processed

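The series holds 11 RNA-seq libraries of enriched CD11b-positive cells. The authors deposited 1 RPKM value per gene symbol and library, with the unit named in the file headers of 10 libraries; the header of TLR9KO replicate 4 names none, and its values have the range and steps of the others. Per the submitters' processing notes, CASAVA 1.7, TopHat 1.3.1, Bowtie 0.12.7 and Partek (no version) and the mouse build mm9 were used. The sources used here do not give the annotation, the strand setting or the handling of reads that map to several places, so near-identical genes can share reads and the RPKM denominators could not be checked. No 2 libraries held identical values.

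Values were analysed as log2(RPKM + 1) for 10557 genes whose mean reached 1 RPKM, a filter that all 9 markers passed, so no separate test of markers under it was needed. Differences on this scale understate changes of low genes. Group means were fitted over all 11 libraries with limma 3.58.1 (eBayes with trend) in R 4.3.3, two-sided, with Benjamini-Hochberg adjustment over the genes tested and a threshold of 0.05. The fit was tested on simulated data with 200 genes changed 2-fold and noise drawn independently for each gene. It recovered 83.5% to 92.5% of them, and 3.47% to 7.53% of its calls were false, most in TLR9KO minus WT. Deviations shared between genes were not simulated. Errors are SDs beside RPKM values and moderated standard errors beside log2 differences.

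Depth was estimated from the steps of microRNA gene values over 10 to 60 M reads; at the depth chosen, 74.4% to 97.1% of values came within 0.15 of whole reads. Count models were not used, since the values are normalised. GC content and length came from the longest GENCODE M21 transcript, which 98.8% of the tested genes and all 9 markers have. Alternatives were a pseudocount of 0.1, no filter, median-ratio scaling, the GC and length correction, a fit of only the 2 groups compared, array weights, a replicate block and leaving out each library. All 9 markers are described; from each other list up to 4 genes with the smallest p among those past the threshold could be named, and for each marker the 3 most similar genes, of which 1 is not reported here. Lyz1, Itgam, Csf1, Il34, Sfpi1 and Ms4a1 were added after their values were seen, and so were the ratios. The markers and lists were chosen with earlier results of these data known. Tables and plots were made in Python 3.11.15 with pandas 2.3.3, numpy 2.4.6, scipy 1.17.1 and matplotlib 3.10.9.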

Additional observations from a re-analysis of the deposited data

Results flagged for a closer look

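Cd68 in TLR9KO replicate 1, at 1089.5 RPKM, lay far above the other 3 TLR9KO libraries relative to the range of the group, at 799.83 to 836.34 RPKM. Such a gap was looked for in 18 groups of 4 libraries, the 9 markers in STAT3KO and TLR9KO, and chance gives it in about 1 group in 20. Without that library the difference of TLR9KO from WT was -0.33 (limma adjusted p = 0.0365), against -0.22 (0.213) with it.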

How the results depend on the processing

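The 27 marker differences were recomputed under 18 alternatives, which gave 486 values; 448 kept their direction and side of the threshold, 15 passed newly, 15 no longer passed and 8 changed sign. None of the 8 was called. Some alternatives could not change a log2 difference, only its p-value. These were no filter, the fit of only the 2 groups compared and leaving out a library of the third group. Mpeg1 in TLR9KO minus WT was -0.025 after the GC and length correction and -0.058 to 0.27 with single libraries left out, below 0 without TLR9KO replicate 3 (-0.022) and without WT replicate 1. In the same comparison Siglec1 was 0.25 after the correction, and Folr2 was -0.033 to 0.40 with libraries left out, below 0 without TLR9KO replicate 1. Cd163 in STAT3KO minus TLR9KO was 0.0051 with a pseudocount of 0.1 and -0.65 to 0.29 with libraries left out, above 0 without TLR9KO replicate 1 (0.29) or replicate 4 (0.092). The number of markers called in TLR9KO against WT, 1, was 0 after the correction, with no filter and in the fit of only the 2 groups compared, 2 with array weights, median-ratio scaling or the replicate block, and 0 to 3 with single libraries left out. In STAT3KO against TLR9KO, 3, it was 6 with array weights and 3 to 4 with libraries left out, and in STAT3KO against WT, 6, it was 4 to 7. Over all genes, 3229 were called in TLR9KO against WT, 1654 after the correction and 1985 to 3588 with libraries left out (fewest without WT replicate 1). For STAT3KO against TLR9KO 2409 were called, 3807 with array weights and 1577 to 2703 with libraries left out (fewest without TLR9KO replicate 4), and for STAT3KO against WT 4648 and 3667 to 4875. The cause of these shifts was not tested. Same-numbered libraries deviated together at r = -0.29 to 0.49, over 0.1 in 4 of 10 pairs, and 2 of 11 libraries were closest to their own number. Pairs of replicate 1 libraries gave 0.49, 0.34 and 0.18, and pairs of replicate 2 libraries -0.04, -0.18 and -0.22. The labels do not say whether a replicate number marks a shared batch or day, and so few correlations cannot decide it. With the replicate block 4074, 2662 and 1879 genes were called in STAT3KO against WT, TLR9KO against WT and STAT3KO against TLR9KO, and Csf1r passed in TLR9KO against WT (-0.40, limma adjusted p = 0.0488). Depth limits the marker values little, since the lowest, of Cd163, stood for about 124 reads.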
